A study of Mus musculus with 23 samples.

Results

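Standard RNA libraries of adipocytes (day 7) and preadipocytes (day 0) of the C3H10T1/2 line were compared, 2 of the 23 samples of the series. The series tests TELP, a library construction method, and these 2 libraries were made with the standard procedure that it is set against. Of 24029 genes in the deposited table, 11166 were compared. These are genes whose mean over the pair of libraries reached 1 RPKM (read number corrected for gene length and for sequencing depth), with small noncoding RNAs left out by symbol.

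C3H10T1/2 is a mouse mesenchymal stem cell line of strain C3H, and the labels give that cell type for both days. Cells of both days were seeded at 70% confluency and grown with 10% serum and BMP7 at 8.3 nM for 3 days. Day 0 is the end of that growth. For day 7, cells then received dexamethasone (DEX) at 5 uM, IBMX at 0.5 mM, insulin at 0.12 ug/ml, Rosi at 1 uM and T3 at 1 nM until day 2, and insulin, Rosi and T3 afterwards. Total RNA was extracted with Trizol, treated with DNase I, bound to oligo(dT) beads, fragmented and primed with random hexamers. Each day is 1 library of 1 cultured line, so no difference below has a replicate error or a p-value, and differences between cultures cannot be told apart from the day. The medium differs between the days too, so time, the induction agents and the agents still present at day 7 cannot be told apart. In bulk RNA, fewer cells of a type and less RNA per cell cannot be told apart either.

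Adipogenesis turns a fibroblast-like precursor into a cell that stores triglyceride in lipid droplets. PPARG and the C/EBP factors drive the programme, which includes fatty acid uptake, triglyceride synthesis, lipolysis and secreted hormones. Brown and beige adipocytes also hold many mitochondria and can burn fat for heat, and BMP7 is known to favour the brown lineage in this line.

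Depth estimated from the low values was about 14300000 reads at day 0 and 14100000 at day 7. A transcript of 2 kb at 1 RPKM then rests on about 25.8 reads at day 0, after 200 bases are deducted from its length. Counting error alone gives the log2 difference of such a gene an SD of 0.202, falling to 0.116 at 10 RPKM. Differences are given as log2 of (RPKM + 1) at day 7 over day 0, which understates the change of low genes. Calls of higher or lower needed a difference of 1 log2 unit or more, a rule of size and not a test.

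The day 7 library held the adipocyte transcripts that its label names. Of 8 adipocyte marker genes, 7 were measured and all 7 were higher at day 7, and 6 of the 7 passed the filter only through day 7. Adipoq, which encodes the hormone adiponectin, stood at 0.675 RPKM on day 0 and 1335 on day 7. Plin1, the perilipin that coats the lipid droplet of fat cells, was at 0.0838 and 183 RPKM. The eighth marker, Lep, which encodes leptin, was listed at 0 on both days. Of 65 markers of 9 other cell types, 16 passed the filter, and the summed level of each of these lists was lower at day 7 than at day 0. At day 0 their sums ran from 0.313 RPKM for 6 epithelial genes to 121 for 6 smooth muscle genes, and at day 7 from 0.179 to 54.6, the latter for 9 osteoblast genes. Myod1, Myog, Ckm, Itgam, Tyrobp, Epcam, Krt8, Tie1, Ibsp and Olig2, which define muscle, leukocytes, epithelium, endothelium, bone and glia, were listed at 0 on both days. Other markers were not. Tek, an endothelial receptor, stood at 11.2 RPKM on day 0 and 1.18 on day 7, and Map2, a neuronal microtubule protein, at 21.0 and 4.60. Acta2, an actin of smooth muscle and activated fibroblasts, stood at 109 RPKM on day 0 and 31.8 on day 7, and Runx2, the bone lineage factor, at 15.5 and 6.15.

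Across the 11166 genes, 883 were called higher at day 7 (7.91%) and 683 lower (6.12%), while 9600 (86%) stayed inside the call size. The extremes were lopsided. By at least 3 log2 units, 124 genes were higher and 7 lower, and 4 of those 7 were listed at 0 at day 7. The median gene lay at -0.18 and the quartiles at -0.49 and 0.21. Of the calls 56.4% were higher, and 70.3% when the libraries were scaled by the median of ratios, which moved the median gene by 0.18 to -0.0037. Among the kept genes 311 were below 1 RPKM at day 0 and 278 at day 7, so they passed the filter through the other day alone. At the threshold, Ormdl2 was just called higher (4.44 and 9.88 RPKM) and Lgals3 just was not (16.9 and 34.8). Sh3bp5 was just called lower (28.1 and 13.5 RPKM) and Cbfb just was not (30.3 and 14.7). At the filter, Kif24 was kept with a mean of 1.00 RPKM and Scn2a1 was not, at 0.998.

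**Figure D1:**
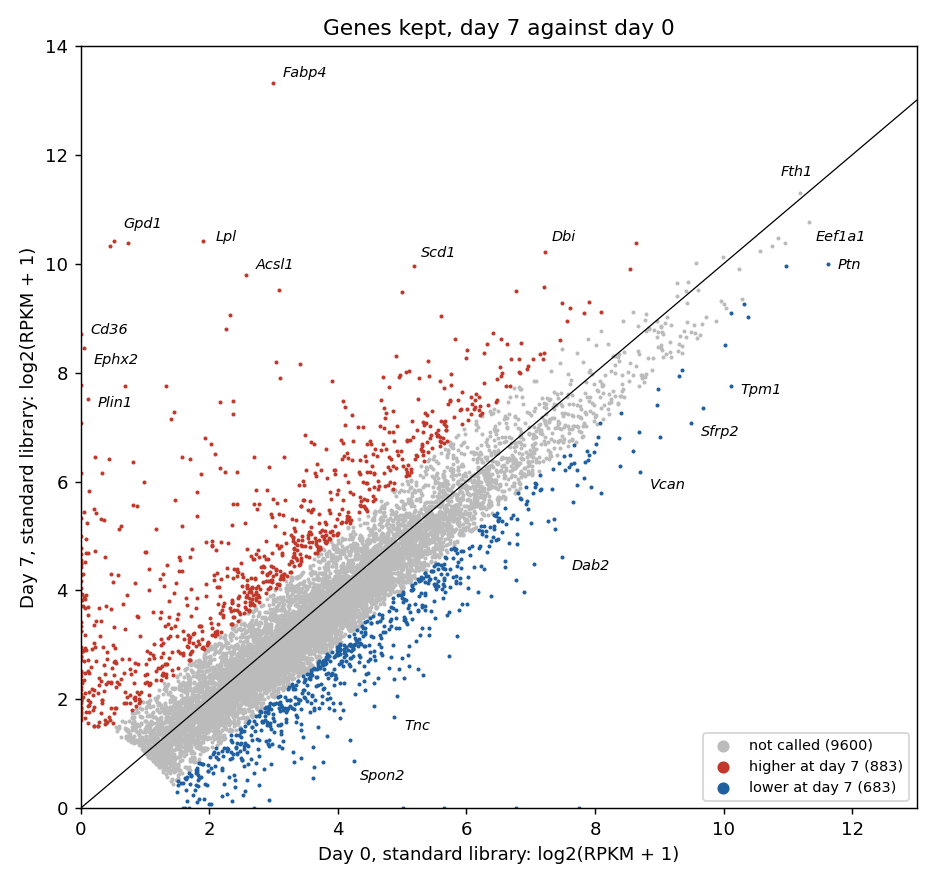
Level of each of the 11166 genes at day 0 (horizontal) and day 7 (vertical) as log2(RPKM + 1), 1 point a gene and 1 library a day, with the line of equal level. The 883 genes called higher reach much farther from the line than the 683 called lower, and Fabp4 stands at the top with 6.99 RPKM at day 0 and 10253 at day 7.

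Several of the genes farthest apart handle fat. Among genes above 0 on both days, Fabp4, which carries fatty acids inside adipocytes, came first with a difference of 10.33 from 6.99 RPKM at day 0 to 10253 at day 7, where it was the most abundant message. Gpd1, which makes the glycerol phosphate backbone of triglyceride, was at 0.430 and 1361 RPKM. Cidec, which fuses lipid droplets, was at 0.371 and 1283 RPKM. Lpl, the lipase that frees fatty acids from lipoproteins, was at 2.75 and 1375 RPKM. The other 10 of the 15 highest differed by 5.96 to 8.40 units besides Adipoq. They were Ephx2, Plin1, Acsl1, Aldh1a7, Ifi27l2a, Pnpla2, Agpat2, G0s2, Adig and Agpat9. Aldh1a7 has close relatives, so its reads may be shared. The 43 kept genes listed at 0 at day 0 have no fold. The highest of them at day 7 were Cd36, a fatty acid transporter, at 416 RPKM, Mrap, an accessory protein of melanocortin receptors, at 218, and Retn, which encodes resistin, at 134. Cox8b (70.2), Orm1 (39.2), Cfd (31.0), Tmem182 (26.5) and Thrsp (24.3) followed. A listed 0 can be a failed estimate, since Bclaf1, a gene of most cells chosen after its values were seen, was listed at 0 at day 0 and stood at 21.3 RPKM at day 7.

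Transcription factors of adipogenesis split between higher and lower. Of 23 measured, 6 were higher and 3 lower, with a median of 0.10 against -0.18 over all genes. Of the 23, 2 passed the filter only through day 7 and 1 only through day 0. Pparg, the master regulator, was already at 27.0 RPKM at day 0 and at 73.0 at day 7, a difference of 1.40. Cebpa, its partner in the mature cell, was at 1.97 and 35.5 RPKM, a difference of 3.62. Nr1h3, the oxysterol receptor LXR alpha, went from 0.0869 to 24.8 RPKM. Of the C/EBP factors known to act early, Cebpb was higher at day 7 (8.72 and 21.9 RPKM) and Cebpd lower (18.1 and 4.80). Srebf1, which drives lipid synthesis genes, was at 8.86 and 30.2 RPKM, and Klf15 at 0.266 and 2.83. Klf4 and Egr2, regulators linked to the start of adipogenesis, were lower, Klf4 at 63.4 and 12.5 RPKM and Egr2 at 4.30 and 0.434. Among 17 PPARG coregulators 3 were higher and 0 lower, namely Ppargc1b (0.181 and 5.51 RPKM), Nrip1 (3.63 and 10.7) and Ppargc1a (0.787 and 3.13). Ppargc1b and Ppargc1a passed the filter only through day 7.

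Genes of the lipid droplet, triglyceride synthesis and lipolysis were often higher. Of 20 droplet genes 11 were higher and 1 lower, with a median of 1.88, and 4 passed the filter only through day 7. Plin2, a droplet coat protein of many cells, was at 47.9 and 526 RPKM, while Plin3 was at 51.4 and 33.6, a difference of -0.60 that missed the call size. Fitm2, which helps droplets form, was at 4.41 and 71.1 RPKM. The 1 droplet gene called lower was Mest, an imprinted gene, at 264 and 112 RPKM. Of 16 triglyceride synthesis genes 8 were higher and 0 lower, and 3 passed the filter only through day 7. Their median was 1.31, or 0.89 with no filter. Agpat2, an acyltransferase whose loss causes lipodystrophy, was at 7.45 and 734 RPKM. Both enzymes of the last step were higher, Dgat1 from 5.51 to 86.4 RPKM and Dgat2 from 2.24 to 84.2. Of 22 lipolysis genes 13 were higher and 1 lower, with a median of 2.17, and 5 passed the filter only through day 7. Pnpla2, the first lipase of the cascade, was at 3.77 and 444 RPKM, and its inhibitor G0s2 at 1.52 and 214. Lipe and Mgll, the lipases of the next steps, were at 3.49 and 176 RPKM and at 1.98 and 86.5. Aqp7, the channel that lets glycerol out, was at 0.0367 and 42.6 RPKM. The cyclic AMP phosphodiesterase Pde4d was the 1 member lower, at 12.5 and 5.35, and missed the call size at -0.91 under median of ratios scaling.

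Promoter letters are shown for Plin1 because it was the only 1 of the 15 highest genes whose window held a searched motif upstream of the start. For 11 of these 15 genes RefSeq (GRCm38.p6) gives a window of 250 bases before to 50 after the gene's start. The motif TTGCNNAA, a core of C/EBP sites, and AGGNCANAGGNCA, a direct repeat (DR1) of the kind PPARG binds, were searched on both strands of the 250 bases before the start and do not overlap each other in the stretches printed. Capitals mark the match.
Plin1 first stretch: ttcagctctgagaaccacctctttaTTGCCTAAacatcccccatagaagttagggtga
Plin1 second stretch: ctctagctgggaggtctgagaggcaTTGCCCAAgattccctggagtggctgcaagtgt
These lie at chr7:79732931-79732988 and chr7:79732802-79732859 on the minus strand, upstream of the start. The same 250 bases held the C/EBP core in 9.55% of 27025 promoters and the DR1 in 0.333%, so a match is a description of letters and not a binding site. None of the 11 windows held the DR1 upstream of the start.

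Fatty acid uptake and binding genes, 23 in all, held 0.150% of all RPKM at day 0 and 4.73% at day 7. Fabp4 alone made up 3.31% at day 7, and without it the list went from 0.148% to 1.43%. Of 19 measured, 9 were higher and 1 lower, with a median of 0.79, or 1.94 among those reaching a mean of 5 RPKM. Acsl1, which activates fatty acids to acyl-CoA, was at 4.94 and 888 RPKM, and Fabp5, another fatty acid carrier, at 7.60 and 237. Slc27a3, a fatty acid transport protein, was the 1 member lower, at 3.57 and 1.06 RPKM. In de novo lipogenesis 14 of 21 genes were higher and 1 lower, with a median of 1.78. Scd1, the desaturase that makes oleate, was at 35.4 and 998 RPKM. Fasn, fatty acid synthase, was at 29.998 and 242, and Me1, a source of NADPH, at 28.9 and 315. Acly, which makes cytosolic acetyl-CoA, was at 51.7 and 170, and the carboxylase Acacb was at 0.151 and 9.29. The elongase Elovl6 was the 1 member lower, at 25.3 and 9.13.

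**Figure D2:**
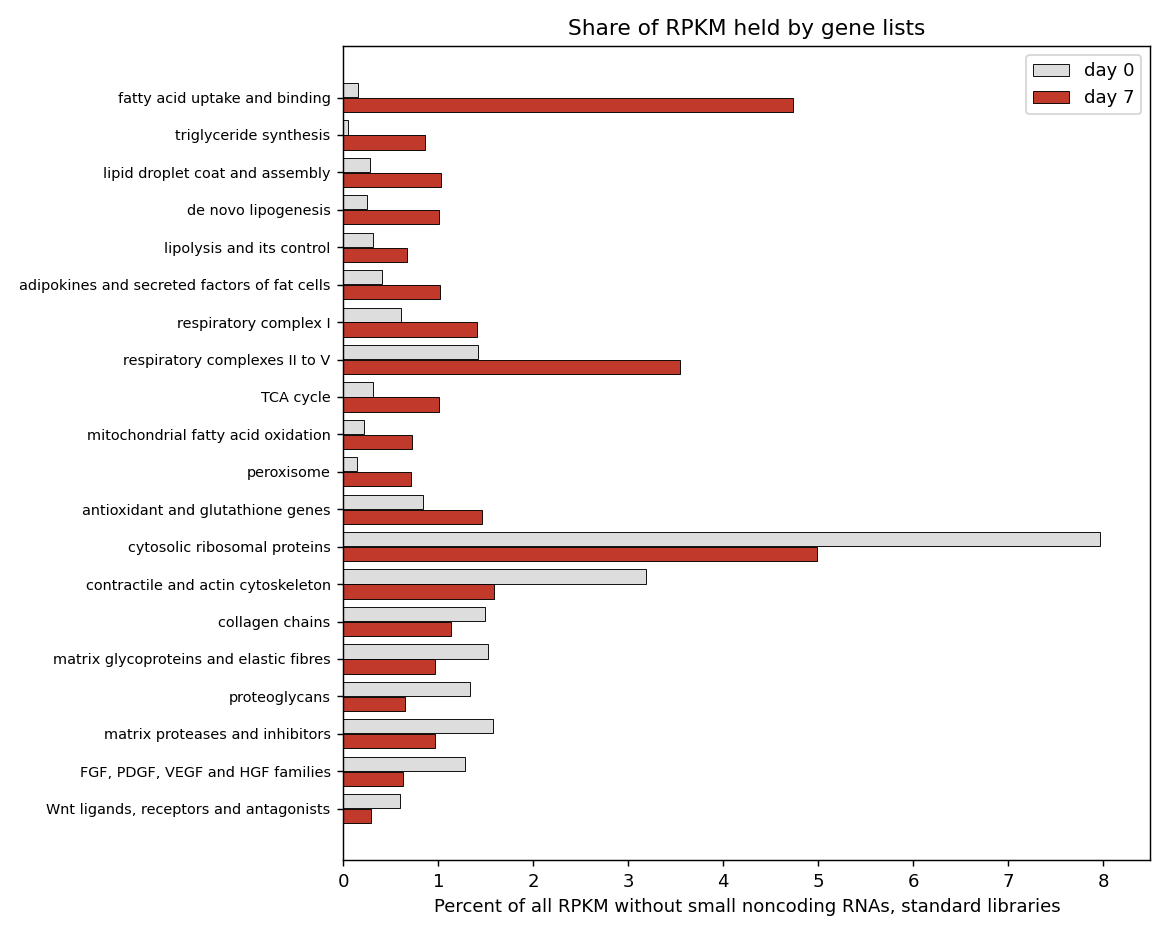
Percent of all RPKM, small noncoding RNAs left out, held by 20 gene lists at day 0 (grey) and day 7 (red), 1 library a day. Fatty acid uptake and binding went from 0.150% to 4.73%, of which Fabp4 alone was 3.31%, and cytosolic ribosomal protein genes from 7.97% to 4.98%.

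Secreted factors of fat cells were higher in 15 of 28 measured genes and lower in 3. Their median was 1.24, or 0.66 without genes listed at 0 and 0.55 with no filter, and 9 of the 28 passed the filter only through day 7. Those at 0 at day 0 included Retn, Orm1 and Cfd, given above. C1qtnf6, a relative of adiponectin, was lower at 59.4 and 23.0 RPKM, as were Hp, haptoglobin, at 31.5 and 13.3, and Ccl2, a monocyte chemokine, at 10.1 and 3.98. Hp and Ccl2 missed the call size, both at -0.99, under median of ratios scaling. Among 35 insulin signalling genes measured, 4 passed the filter only through day 7 and 1 only through day 0. Of the 35, 25 stayed inside the call size, 7 were higher and 3 lower, against 86%, 7.91% and 6.12% over all genes. Those that differed included Slc2a4, the insulin-dependent glucose transporter GLUT4, listed at 0 at day 0 and at 18.4 RPKM at day 7. Slc2a1, the basal transporter GLUT1, was lower at 17.9 and 6.58, a difference of -1.32. TELP N9 libraries of the same days put Slc2a1 higher, at 1.57. Insr and Irs2 were higher, at 5.20 and 12.9 RPKM and at 3.65 and 10.5, while Irs1 was at 47.5 and 38.5, inside the call size. Tusc5, which takes part in GLUT4 traffic, was at 0.0687 and 36.7 RPKM, and Trib2, a pseudokinase that restrains adipogenesis, at 16.0 and 2.49.

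Genes of fuel use in the mitochondrion were higher together. Of 20 genes of the TCA cycle 18 were higher and 0 lower, with a median of 1.67. Cs, citrate synthase, was at 91.4 and 394 RPKM, and Idh3a, a subunit of isocitrate dehydrogenase, at 16.3 and 131. Of 26 genes of mitochondrial fatty acid oxidation 20 were higher and 0 lower, with a median of 1.80, and the other 6 also lay above 0. Cpt1b, the muscle and brown fat form of the entry enzyme, was at 0.0172 and 13.2 RPKM, while Cpt1a, the liver form, was at 25.2 and 40.4, a difference of 0.66. Acadvl, the first dehydrogenase for long chains, was at 24.6 and 180 RPKM. Of 37 complex I subunits 25 were higher and 0 lower, with a median of 1.21 and a range of 0.17 to 1.90. Complexes II to V had 31 of 42 higher and 0 lower, with a median of 1.42. Cycs, which carries electrons to complex IV, was at 11.4 and 102 RPKM, and Cyc1, a complex III subunit, at 25.8 and 152. Cox7a1, a complex IV form of heart and brown fat, was at 0.427 and 9.10. The ATP synthase subunit Atp5b entered the 10 most abundant messages at day 7, with 398 RPKM at day 0 and 1325 at day 7. Together complexes I to V went from 0.606% and 1.41% of RPKM to 1.40% and 3.55%.

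The machinery that builds mitochondria differed less than the enzymes in them. Of 76 mitochondrial ribosomal proteins 75 lay above 0 but only 13 were called higher, with a median of 0.58, and median of ratios scaling called 21. Mrpl12 was at 21.9 and 102 RPKM. Of 34 import and chaperone genes 13 were higher, with a median of 0.83, led by Grpel1 (8.71 and 31.5 RPKM) and the chaperonin Hspd1 (69.9 and 195). Of 20 biogenesis and dynamics genes 4 were higher, with a median of 0.14. Carriers of the inner membrane split, with 12 of 40 higher and 1 lower. Slc25a1, which exports citrate for lipid synthesis, was at 41.2 and 297 RPKM, and Slc25a10, the dicarboxylate carrier, at 3.73 and 70.8. Slc25a4, an adenine nucleotide carrier, was at 326 and 309.

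Pyruvate handling and breakdown of branched-chain amino acids were higher as well. Of 18 genes of glyceroneogenesis and pyruvate handling 12 were higher and 0 lower, with a median of 1.78. Pcx, pyruvate carboxylase, was at 9.61 and 284 RPKM. Pck1, the cytosolic enzyme of glyceroneogenesis, was at 0.0576 and 29.6 RPKM, while the mitochondrial form Pck2 was at 8.06 and 11.1. Of 24 genes of branched-chain breakdown 11 were higher and 0 lower, with a median of 0.87. Bcat2 and Bckdhb, at the first and second step, were at 13.2 and 66.3 RPKM and at 15.6 and 107. Glycolysis had 6 of 22 higher and 0 lower, with a median of 0.53, and 10 higher under median of ratios scaling. Aldoa, an aldolase, was at 147 and 764 RPKM, while Hk1 was at 52.8 and 39.5. Pentose phosphate and glycogen genes had 6 of 20 higher, with Taldo1 at 21.5 and 107 RPKM.

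Peroxisomes and cholesterol synthesis belonged to the same side. Of 39 peroxisomal genes 21 were higher and 0 lower, with a median of 1.53, and 4 passed the filter only through day 7. Ephx2, a soluble epoxide hydrolase, was at 0.0389 and 351 RPKM, and Ehhadh, an enzyme of peroxisomal oxidation, at 0.0990 and 56.0. Acaa1a and Acaa1b, thiolases of near-identical sequence whose reads may be shared, were at 8.06 and 49.4 RPKM and at 2.82 and 111. Of 25 genes of cholesterol synthesis 13 were higher and 0 lower, with a median of 1.06. Dhcr7 and Lss, late enzymes, were at 6.64 and 76.4 RPKM and at 10.3 and 73.1.

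Brown and beige fat genes were partly detected. Of 35 listed genes 18 were measured and 17 fell below the filter, and 12 of the 18 passed only through day 7. For that reason the 14 called higher carry no weight as a count. Their median of 2.30 becomes 0.53 with no filter. Ucp1, the uncoupling protein that defines brown fat, was listed at 0 on both days. Ucp2 and Ucp3, its relatives, were at 0.0506 and 13.4 RPKM and listed at 0 and 3.52. Adrb3, the adrenergic receptor of fat, was listed at 0 at day 0 and stood at 21.6 RPKM at day 7. Gyk, glycerol kinase, was at 1.34 and 17.5 RPKM. The 4 measured genes not called all lay below 0. They were Slc29a1 (58.8 and 33.4 RPKM), Tbx1 (15.6 and 10.8), Fbxo31 (5.18 and 4.07) and Ckb (1.55 and 1.27).

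**Figure D3:**
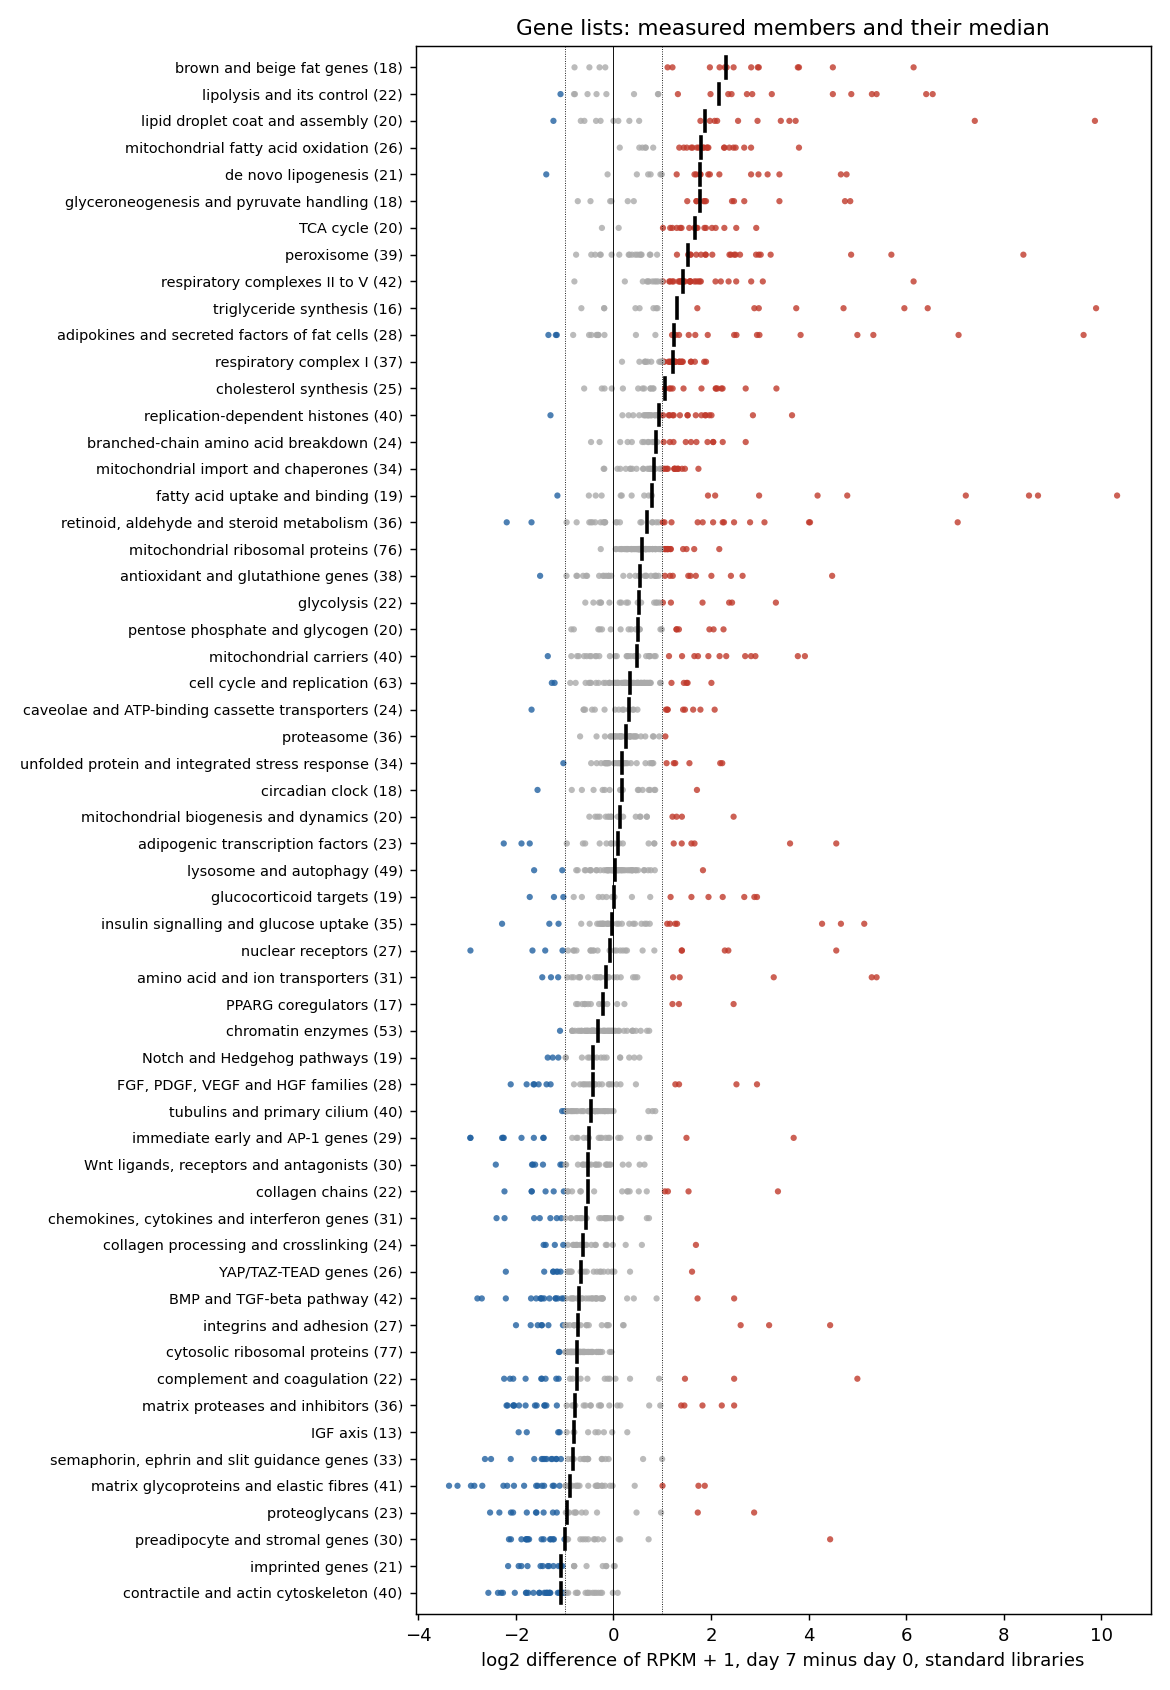
Log2 difference of RPKM + 1 between day 7 and day 0 for the measured members of 58 gene lists, 1 point a gene, red for called higher, blue for called lower, grey for neither, with the list median as a black bar, the call size dotted and the number measured in brackets. Lipolysis genes lie near the top with a median of 2.17, and contractile and imprinted genes lie together at the bottom, both at -1.08, while the top row, brown and beige fat genes, holds 12 of 18 genes that passed the filter only through day 7.

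Of the 683 genes lower at day 7, 209 were in any of the gene lists and 474 in none. Spon2, a matrix protein, had the lowest difference among genes above 0 on both days, -3.37, from 17.96 to 0.832 RPKM. Tnc, tenascin C, was at 28.4 and 2.21 RPKM, and Ptprq, a receptor phosphatase, at 11.2 and 0.463. The other 12 of the 15 lowest lay between -2.93 and -2.69, namely Plk2, Nr4a1, 1500015O10Rik, Mfap2, Clec11a, Npy1r, Dab2, Mfap4, Inhba, Ptx3, Tgfbi and Fbn2. Dab2, an endocytic adaptor, was the most abundant of them, at 178 and 23.6 RPKM. Only 7 kept genes were listed at 0 at day 7. The highest at day 0 were DQ267100 at 214 RPKM, Sh3pxd2a at 108, AF357399 at 49.2 and Kirrel at 31.2. TELP N9 libraries put Sh3pxd2a at a difference of 0.10, Kirrel at -2.82, and DQ267100 and AF357399 at 0.0000. The symbols DQ267100 and AF357399 have none of the prefixes left out as small noncoding RNA, and their kind was not checked. Wfdc18 was at 5.51 RPKM at day 0 and Crabp1, a retinoic acid carrier, at 2.21.

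Promoter stretches are shown for the 4 of the 15 lowest genes whose window held the C/EBP core, out of 11 with a RefSeq (GRCm38.p6) window, since the 2 ends of the ranking were searched alike. Capitals mark the match.
Clec11a: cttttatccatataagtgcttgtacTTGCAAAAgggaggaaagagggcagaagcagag
Dab2: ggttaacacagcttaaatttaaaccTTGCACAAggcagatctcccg
Inhba: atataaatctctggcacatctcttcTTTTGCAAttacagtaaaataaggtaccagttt
Ptx3: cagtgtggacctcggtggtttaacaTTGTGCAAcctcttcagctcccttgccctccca
They lie at chr7:44307084-44307141 (minus strand), chr15:6299743-6299788, chr13:16011759-16011816 and chr3:66219805-66219862 (plus strand). The DR1 was in none of these 11 windows. Shares of motifs over all called genes were not computed, because a window was matched for 77.9% of the genes higher and 75.5% of those lower, under the 80% needed.

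Precursor and stromal genes were lower in 15 of 30 measured and higher in 1, with a median of -0.99. Of the 30, 3 passed the filter only through day 0, Dlk1 and Pi16 among them, and 1 only through day 7. Dlk1, the classic preadipocyte marker, was at 5.60 and 0.784 RPKM. Gata2, a factor that holds back adipogenesis, was at 11.4 and 2.57, and Hmga2, a chromatin protein of proliferating precursors, at 6.83 and 1.26. Aspn, asporin, was at 334 and 77.0 RPKM and Pi16, a marker of early stromal progenitors, at 6.77 and 0.759. The receptors Pdgfra and Pdgfrb stayed inside the call size, at 80.8 and 52.0 RPKM and at 97.5 and 74.8. The 1 gene higher was Mcam, an adhesion molecule of mural cells, at 0.0517 and 21.9. Imprinted genes were lower in 12 of 21 and higher in 0, with a median of -1.08, or -0.58 with no filter. Of the 21, 3 passed the filter only through day 0. H19 was at 51.1 and 10.7 RPKM, Igf2 at 7.52 and 1.21 and Rian at 58.7 and 16.6.

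Growth factor pathways held more genes lower than higher. In the BMP and TGF-beta pathway 15 of 42 genes were lower and 2 higher, with a median of -0.70. Of the 42, 3 passed the filter only through day 0 and 1 only through day 7. Among ligands, Inhba, a subunit of activin, was at 6.65 and 0.106 RPKM and Tgfb2 at 71.6 and 14.7. Fst, the activin antagonist, was at 12.4 and 3.16, and Tgfbi, a matrix target of TGF-beta, at 37.2 and 4.87. Of 30 Wnt ligands, receptors and antagonists 7 were lower and 0 higher, and 3 passed the filter only through day 0. The antagonist Sfrp2 was at 721 and 135 RPKM and Sfrp1 at 84.5 and 30.4, while the ligand Wnt5b was at 10.96 and 2.80. The agonist Rspo3 was at 58.7 and 17.7. In the IGF axis 4 of 13 were lower and 0 higher, or 2 lower under median of ratios scaling. Igfbp5 was at 412 and 119 RPKM, while Igf1 was at 209 and 168. In the list of FGF, PDGF, VEGF and HGF genes, which also takes in factors outside those families such as Angptl4, 7 of 28 were lower and 4 higher. Ptn, pleiotrophin, also of none of those families and the most abundant message at day 0, was at 3149 and 1021 RPKM. Angptl4, an inhibitor of lipoprotein lipase, was higher at 26.8 and 213, and Vegfa at 10.7 and 28.8. Notch and Hedgehog genes had 3 of 19 lower and 0 higher.

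Matrix genes went both ways, with more lower than higher. Of 41 matrix glycoproteins 16 were lower and 3 higher, with a median of -0.89. Of the 41, 3 passed the filter only through day 0 and 1 only through day 7. The microfibril genes Mfap2, Mfap4 and Fbn2 were at 12.7 and 0.804 RPKM, at 29.2 and 3.18, and at 22.7 and 2.67. Fn1, fibronectin, was at 842 and 519, a difference of -0.70. Of 23 proteoglycans 10 were lower and 2 higher, while 2 passed the filter only through day 0 and 1 only through day 7. Vcan, versican, was at 415 and 71.0 RPKM, and Ogn, osteoglycin, at 822 and 162. Prelp was higher at 20.8 and 71.2. Of 22 collagen chains 6 were lower and 4 higher. The chains of basement membranes Col4a1, Col4a2 and Col15a1 were higher, at 76.6 and 224 RPKM, 60.3 and 132, and 10.2 and 115. The fibrillar chain Col1a1 was lower at 1114 and 549, a difference of -1.02 that became -0.82 under median of ratios scaling, and Col1a2 was at 1252 and 649, a difference of -0.95 inside the call size. Of 36 matrix proteases and inhibitors 13 were lower and 5 higher, while 3 passed the filter only through day 0 and 1 only through day 7. Timp3, which inhibits metalloproteases, was at 513 and 111 RPKM, and Adamts1, a protease of proteoglycans, at 384 and 93.1. Of 27 integrins and adhesion genes 7 were lower and 3 higher. Of these 27, 3 passed the filter only through day 7, Itga6 and Itga7 among them, and 1 only through day 0. The laminin receptor chains Itga6 and Itga7 were higher, at 0.647 and 14.05 RPKM and at 0.273 and 6.76, while Zyx, zyxin, of focal adhesions, was lower at 154 and 37.7.

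**Figure D4:**
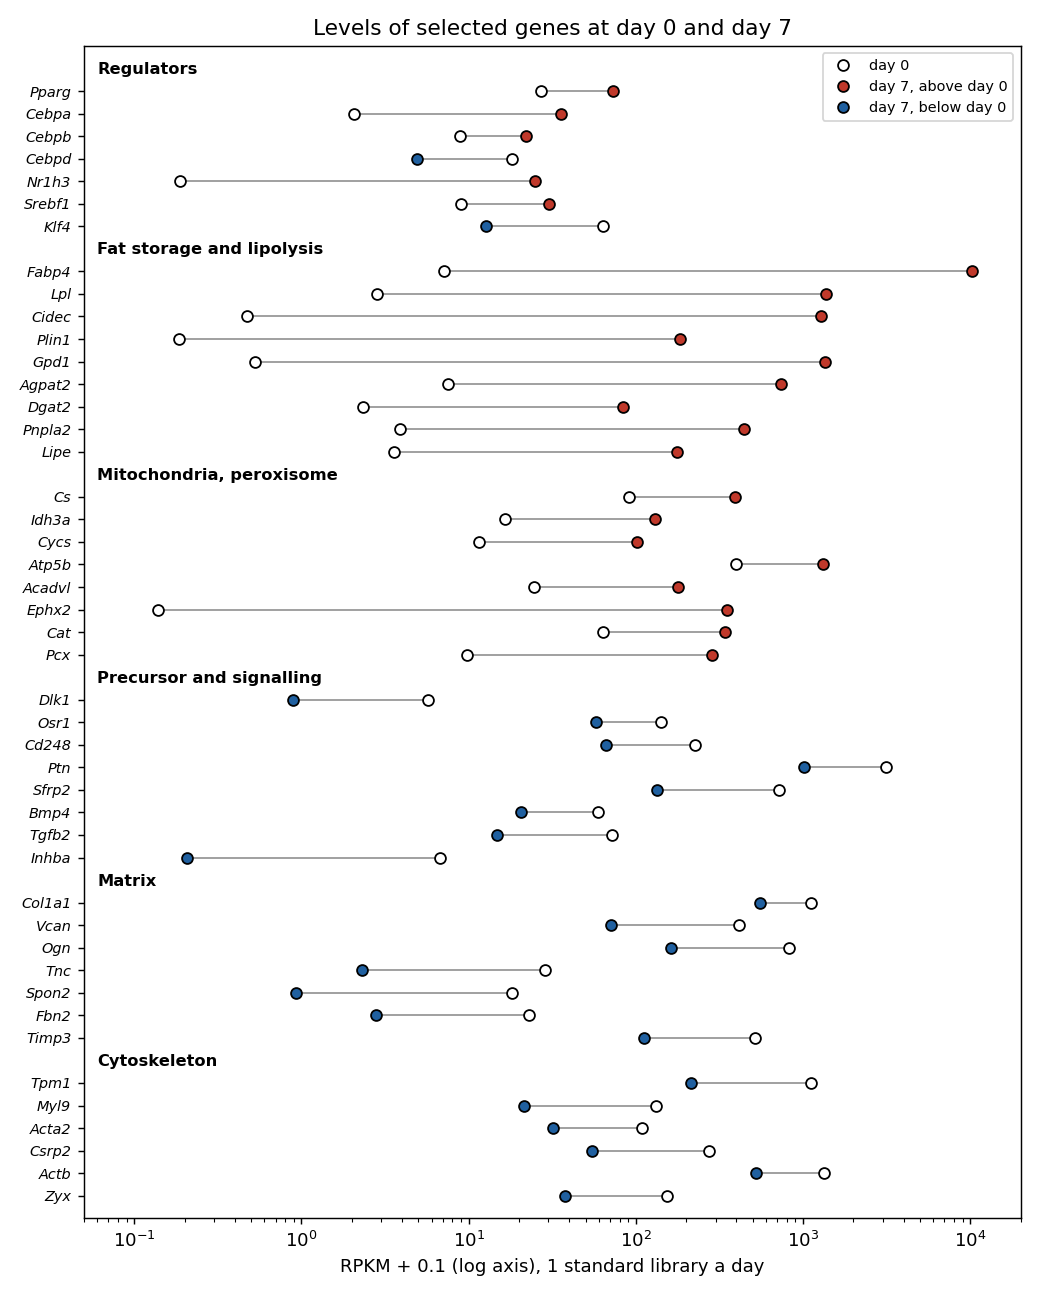
RPKM + 0.1 on a log axis of 45 genes at day 0 (open) and day 7 (red where above day 0, blue where below), 1 library a day, chosen after their values were seen to show the groups described. Dlk1 went from 5.60 to 0.784 RPKM and Tpm1 from 1110 to 214, against Lpl from 2.75 to 1375.

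Actin cytoskeleton genes had a median of -1.08, as low as that of the imprinted genes. Of 40 measured genes 22 were lower and 0 higher, 39 lay below 0, and the list went from 3.19% to 1.59% of RPKM. Median of ratios scaling called 18 lower, with a median of -0.89. Tpm1, a tropomyosin of stress fibres, was at 1110 and 214 RPKM, and Tpm2 at 32.9 and 6.05. Myl9, the regulatory light chain of nonmuscle and smooth muscle myosin, was at 131 and 21.3. Csrp2 and Cnn2, actin-associated proteins, were at 272 and 54.3 RPKM and at 200 and 48.4. Actb, beta actin, often used as a reference gene, was at 1334 and 520, a difference of -1.36. Of 26 genes of the YAP/TAZ-TEAD pathway, which follows cell tension, 7 were lower and 1 higher, or 4 lower under median of ratios scaling. Cyr61, a target, was at 29.1 and 10.2 RPKM, while Yap1 was at 36.0 and 22.6 and Wwtr1 at 26.2 and 25.6. Of 40 tubulin and cilium genes 2 were lower and 0 higher, against 6.12% and 7.91% over all genes.

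SRF is known to act on muscle and actin genes through the CArG box, so that motif was searched in the 22 contractile genes called lower, a set chosen after its values were seen. Of 19 with a RefSeq (GRCm38.p6) window, 5 held it in the 250 bases before the start, as did 1.4% of 27025 promoters. Contractile genes not called lower were not searched, so these shares cannot tie the motif to being lower. A role of SRF was not tested. Capitals mark the match, searched on both strands, and the pair in Srf do not overlap. Acta1 missed the call size under median of ratios scaling, at -0.88.
Acta1: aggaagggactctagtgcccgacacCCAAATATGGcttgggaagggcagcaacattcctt
Actg1: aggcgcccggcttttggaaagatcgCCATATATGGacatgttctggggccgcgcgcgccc
Cnn2: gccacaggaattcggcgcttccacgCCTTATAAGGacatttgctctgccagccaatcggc
Myl9: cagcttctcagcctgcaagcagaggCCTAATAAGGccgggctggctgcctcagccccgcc
Srf first stretch: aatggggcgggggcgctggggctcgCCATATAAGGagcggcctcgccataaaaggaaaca
Srf second stretch: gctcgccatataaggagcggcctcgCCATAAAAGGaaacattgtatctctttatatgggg
The stretches of Acta1, Actg1 and Srf lie on the minus strand at chr8:123894814-123894873, chr11:120348551-120348610, chr17:46556210-46556269 and chr17:46556190-46556249. Those of Cnn2 and Myl9 lie on the plus strand at chr10:79988519-79988578 and chr2:156775278-156775337. Srf itself was lower, at 17.1 and 5.29 RPKM.

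Immediate early genes were lower in 9 of 29 and higher in 2, with a median of -0.51, while 2 passed the filter only through day 0 and 2 only through day 7. The same genes had a median of 0.59 in the TELP N9 libraries, where 10 listed genes were called higher and 11 lower. Egr1 was at 22.6 and 3.91 RPKM, Egr3 at 4.73 and 0.176 and Nr4a1 at 17.3 and 1.40, while Fos was at 1.43 and 2.50. Dusp4, a MAP kinase phosphatase, was higher at 0.500 and 18.4. Of 19 glucocorticoid targets 7 were higher and 3 lower. Fkbp5, a sensitive target, was at 1.43 and 4.48 RPKM, while the receptor Nr3c1 was at 31.3 and 31.8 and Tsc22d3, another target, at 13.8 and 13.5. Per the labels' protocols dexamethasone had been withdrawn from day 2. Of 27 nuclear receptors 5 were higher and 4 lower, or 3 higher among those reaching a mean of 5 RPKM. Of the 27, 3 passed the filter only through day 7, Ppara and Rxrg among them. Ppara was at 0.00991 and 3.91 RPKM, Rxrg was listed at 0 and at 4.12, and Vdr, the vitamin D receptor, was at 11.6 and 2.97.

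Ribosomal protein genes lay below 0 together, but few reached the call size. Of 77 cytosolic ribosomal protein genes 2 were called lower and 0 higher, yet 77 lay below 0 with a median of -0.75, and the list went from 7.97% to 4.98% of RPKM. Under median of ratios scaling 75 lay below 0 with a median of -0.55, and none were called. The TELP N9 libraries called 57 lower and 3 higher. Many of these genes have near-identical processed copies, so their levels are uncertain. Proteasome genes had 1 of 36 higher, lysosome and autophagy genes 1 of 49 higher and 2 lower, and chromatin enzymes 1 of 53 lower. Of 63 cell cycle and replication genes 5 were higher and 2 lower, with a median of 0.35. Over all genes 7.91% were higher and 6.12% lower, so the 5 higher are near the share of all genes. Cdkn2c, the inhibitor p18, was at 16.2 and 68.3 RPKM and Ccnd1, cyclin D1, at 66.7 and 27.2. Mki67 and Top2a, markers of dividing cells chosen after their values were seen, were at 10.1 and 12.5 RPKM and at 17.4 and 26.6, inside the call size. TELP N9 put both lower, Mki67 at -1.40 and Top2a at -1.14.

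The TELP N9 libraries of the same days, also 1 a day, called 12.5% of the 11166 genes higher and 29.7% lower. Of the 883 genes higher in the standard libraries, 797 (90.3%) were also called higher in TELP N9, and 649 (95%) of the 683 lower were also called lower. The labels do not say whether their RNA came from the same cultures, so library procedure and culture cannot be told apart. The shared calls are therefore not counted as a replicate. List medians differed with library type. The contractile median was -1.08 in the standard libraries and -1.78 in TELP N9, and the complex I median 1.21 and 1.68. Matrix glycoproteins went from -0.89 to -2.56, precursor genes from -0.99 to -2.41 and glycolysis from 0.53 to 2.44. The cell cycle median of 0.35 became -0.75. Calls of the standard libraries that missed the call size in TELP N9 included Fkbp5 (0.32), Col4a2 (0.94), Slc27a3 (-0.88), Pde4d (-0.98) and Srf (-0.97).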

How the data were processed

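Levels are RPKM values that the authors deposited for 24029 genes in 6 RNA columns, of which the standard day 0 and day 7 columns were compared. Bowtie2, TopHat and Cufflinks with the mm9 build are named per the submitters' processing notes. Strand handling, annotation and versions were not given in the sources used here, so overlapping and antisense genes may share reads. Differences are log2((RPKM + 1)/(RPKM + 1)), computed from the deposited values, without SD or p-value because each day has 1 library. The mean had to be at least 1 RPKM. Small noncoding RNA models (1198, of which 146 passed the filter) were left out, and shares of RPKM leave them out too. Depth at day 0 was fitted to 12 intronless olfactory receptor genes, with 200 bases deducted from each length. Depth at day 7 followed from a day 7 over day 0 ratio of 1.01 in the value of 1 read. That ratio was common to 301 of 2980 low genes (10.1%), and both depths are approximate. The gene lists, the motifs and the comparison itself were chosen with earlier results of these data known. Named genes were, for each list, up to 5 called members each way with the largest difference and the first 3 listed, the 15 highest and 15 lowest genes, up to 8 each way among those listed at 0, the 10 most abundant and those next to the thresholds. Some genes that this rule names are not reported here. Up to 6 promoter stretches came from the 15 highest and lowest. List medians cover measured members only. Alternatives tried were 0.1 RPKM as pseudocount, a mean of 5 RPKM, no filter, 3 scalings (median of ratios, equal totals, quantiles), small RNAs kept, genes listed at 0 left out and the TELP N9 libraries. Symbols were used as deposited, and 95.1% were in a table of current mouse names. RPKM coordinates were not used. Promoter stretches carry GRCm38.p6 coordinates. Python 3.11.15, pandas 2.3.3, numpy 2.4.6 and matplotlib 3.10.9 were used.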

Additional observations from a re-analysis of the deposited data

Results flagged for a closer look

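The 2 library types called 10 genes in opposite directions, which was not tested because each type has 1 library a day. The 7 that standard libraries put higher at day 7 and TELP N9 lower were Adh1 (1.05 and -2.20 log2 units), Apoe (1.28 and -1.48), Bclaf1, Mgp (1.35 and -3.43), Rrm2 (1.19 and -1.36), LOC547349 and Pisd-ps1. The other 3, lower in the standard and higher in the TELP N9 libraries, were Slc2a1 (-1.32 and 1.57), Rpl30 (-1.11 and 1.60) and Rprl3.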

How the results depend on the processing

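No paired analysis was possible because each group compared holds 1 library. Under 8 alternatives other than library type, the genes higher ranged from 676 (a mean of 5 RPKM) to 1115 (median of ratios) and those lower from 471 (median of ratios) to 938 (a pseudocount of 0.1 RPKM), all within 1.5 times the reported counts. The TELP N9 libraries under the same rules called 1530 higher and 3286 lower, and the cause was not tested. In them 11 named genes that the standard libraries called had the opposite sign, namely Adh1 (-2.20), Apoe (-1.48), Bclaf1 (-1.36), LOC547349 (-2.18), Mgp (-3.43), Pisd-ps1 (-4.58), Rpl30 (1.60), Rprl3 (2.22), Rrm2 (-1.36), Sh3pxd2a (0.10) and Slc2a1 (1.57). Acta1, Ccl2, Col1a1, Hp, Pde4d, Rpl30 and Sh3bp5 missed the call size under median of ratios scaling. Of the named genes measured, no sign of a call changed under the other alternatives.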

Other observations

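Replication-dependent histone genes are multicopy, and their reads may be shared among copies. How far the oligo(dT) beads captured their messages on each day was not measured, so their levels are uncertain. They were higher in 16 of 40 measured and lower in 1, with a median of 0.93, and median of ratios scaling called 26 higher. Hist1h1c, a linker histone, stood at 21.0 RPKM on day 0 and 61.9 on day 7, and 9 of the 40 passed the filter only through day 7. Guidance genes of the semaphorin, ephrin and slit families were lower in 13 of 33 and higher in 0. Of the 33, 3 passed the filter only through day 0. Efnb2, an ephrin, was at 31.7 and 4.26 RPKM and Sema3a, a semaphorin, at 9.80 and 0.895. Cytokine and interferon genes were lower in 7 of 31 and higher in 0, and 3 of the 31 passed the filter only through day 0. Cxcl5 was at 29.8 and 4.85 RPKM. Complement and coagulation genes were lower in 9 of 22 and higher in 3, while 1 passed the filter only through day 0 and 2 only through day 7. The regulator Serping1 was at 33.5 and 6.93 RPKM.

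Retinoid, aldehyde and steroid genes were higher in 14 of 36 and lower in 2, while 4 passed the filter only through day 7 and 1 only through day 0. Crabp2, a retinoic acid carrier, was lower at 11.9 and 1.82 RPKM. Antioxidant genes were higher in 10 of 38 and lower in 1. Mgst1, a microsomal glutathione transferase, was at 30.8 and 711 RPKM, while Prdx4, a peroxiredoxin of the secretory pathway, was at 210 and 73.3. Stress response genes were higher in 6 of 34 and lower in 1, and Hspa5, the main chaperone of the endoplasmic reticulum, was at 241 and 264 RPKM. Among gene families grouped by symbol, 315 zinc finger genes had 1 higher (0.317%) and 10 lower (3.17%), with a median of -0.39. Both shares were under those over all genes, 7.91% and 6.12%. Of 33 cadherin family genes 10 were lower (30.3%) and 0 higher. Caveolin genes Cav1 and Cav2, which shape the caveolae of fat cells, were at 13.9 and 50.3 RPKM and at 10.9 and 49.1. Clock genes had 1 of 18 higher and 1 lower, near the shares over all genes. Arntl, which encodes BMAL1, was at 4.61 and 0.906 RPKM, a difference of -1.56 that was -0.46 in the TELP N9 libraries.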
